A study of Homo sapiens with 9 samples.

Results

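The genes described here are 10 transcripts of the circadian clock in 786-0 cells, a human clear cell renal cell carcinoma line. These cells have no working VHL, the protein that marks HIF-α subunits for destruction, and make no functional HIF1α, which leaves HIF2α as the HIF-α subunit present under normal oxygen. They were fixed by name as BHLHE40, BHLHE41, PER1, PER2, PER3, CRY1, CRY2, NR1D1, NR1D2 and DBP, and all 10 were found among the 58735 genes of the count table. RNA was sequenced from untreated cells of WT genotype (WT), from WT cells given 10 μM PT2385 for 48 h (PT2385) and from untreated cells of hif2a KO genotype (KO), with 3 libraries of each. PT2385 is a small molecule that binds HIF2α and keeps it from pairing with HIF1β. All 9 cultures were kept for 48 h in normoxia (21% O2), in DMEM with 5 mM glucose and 10% FBS. How the KO line was made, and whether it is 1 clone, is not given in the sources used here, and neither is the hour at which cells were harvested. Nothing in the labels says that the replicates were separate cultures, so p-values measure the spread between these libraries only.

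The molecular clock is a feedback loop. CLOCK or NPAS2, paired with BMAL1, binds E-box elements and switches on the PER and CRY genes, whose proteins return to the nucleus and silence that activity. NR1D1 and NR1D2 (REV-ERBα and REV-ERBβ) repress BMAL1, DBP is an output activator, and BHLHE40 and BHLHE41 (DEC1 and DEC2) are bHLH repressors that bind the same E-box and oppose CLOCK and BMAL1. Both DEC genes are also known as hypoxia-inducible genes. In cultured cells the clock is reset by fresh serum and fades between resets, so that levels depend on the hour of harvest, and with 1 time point a change in level and a change in phase cannot be told apart.

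Promoter sequence is shown for the 3 genes that changed in KO, and for PER2, which differed most between replicate numbers. Each line gives the 250 bases before the RefSeq start site on GRCh38.p14, 5′ to 3′ on the strand of the gene. Capitals mark the E-box CACGTG and the shorter core of the hypoxia response element, ACGTG, where it lies outside an E-box, searched on both strands.
BHLHE40 (chr3:4979187-4979436, plus strand): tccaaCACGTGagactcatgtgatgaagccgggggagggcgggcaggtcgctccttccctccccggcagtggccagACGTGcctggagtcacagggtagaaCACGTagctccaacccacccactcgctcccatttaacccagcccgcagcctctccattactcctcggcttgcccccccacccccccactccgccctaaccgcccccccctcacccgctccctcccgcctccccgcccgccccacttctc
BHLHE41 (chr12:26125038-26125287, minus strand): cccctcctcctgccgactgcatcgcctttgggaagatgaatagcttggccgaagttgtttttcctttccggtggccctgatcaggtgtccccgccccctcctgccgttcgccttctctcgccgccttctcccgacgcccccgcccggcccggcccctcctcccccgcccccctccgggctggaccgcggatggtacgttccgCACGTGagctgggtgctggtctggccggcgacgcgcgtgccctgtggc
PER1 (chr17:8152405-8152654, minus strand): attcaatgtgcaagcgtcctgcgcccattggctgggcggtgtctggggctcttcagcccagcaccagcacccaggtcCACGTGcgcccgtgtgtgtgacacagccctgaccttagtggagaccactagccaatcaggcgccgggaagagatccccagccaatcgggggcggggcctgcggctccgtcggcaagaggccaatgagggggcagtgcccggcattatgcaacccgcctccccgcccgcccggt
PER2 (chr2:238288611-238288860, minus strand): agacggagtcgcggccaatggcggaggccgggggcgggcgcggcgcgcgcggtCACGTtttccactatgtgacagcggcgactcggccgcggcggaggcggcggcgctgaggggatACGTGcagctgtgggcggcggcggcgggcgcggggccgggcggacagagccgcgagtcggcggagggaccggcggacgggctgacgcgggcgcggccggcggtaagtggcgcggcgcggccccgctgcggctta

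All 10 genes matched the RefSeq table, with 13 start sites in all. The E-box was found upstream of BHLHE40, BHLHE41, PER1 and NR1D2, which carries 2 of them upstream of 1 of its 2 start sites. That is 4 of the 13 windows, where 6.34% of all 35116 windows of this length hold it. The ACGTG core outside an E-box was found in 5 of the 13 windows (1 each of BHLHE40, PER2, CRY1, CRY2 and NR1D1), and 13.2% of all windows hold it. In BHLHE40 the E-box begins 245 bases before the start site, with ACGTG cores at 174 and 149 bases. In BHLHE41 and PER1 the E-box begins 48 and 173 bases before it. In PER2 the match 197 bases before the start site lies on the opposite strand and reads CACGTT on the strand of the gene. Sequences that differ from CACGTG by 1 base were not counted as E-boxes. All these matches describe the letters of the window and do not show that any factor was bound there.

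Between 11881000 and 14730081 reads were counted per library. In EPAS1 (chromosome 2, 46293667 to 46386697), the gene that encodes HIF2α, the KO libraries held 262 to 360 reads and the WT libraries 2788 to 3226, so that 8.63% of the WT level was left (log2 fold change -3.52, standard error 0.0963, adjusted p = 2.15e-09, edgeR). With PT2385 EPAS1 had 3075 to 3317 reads and was not called (log2 fold change -0.11, 95% interval -0.27 to 0.06, adjusted p = 0.459, edgeR). Of 10 HIF-inducible reference genes 8 were tested, and 7 fell in each comparison with WT. Over all genes 4.62% fell with PT2385 and 15.4% in KO. The log2 fold change with PT2385 and in KO was -3.14 and -5.74 for EGLN3, -3.54 and -3.74 for NDRG1, -2.81 and -3.11 for ADM, and -1.46 and -3.37 for CA12. PDK1 fell least (-0.35 and -0.26) and in each comparison was called in 3 of the 6 fits that left out a library. BNIP3 was not called (0.19 and 0.19). Some of these genes had been picked out by the study on these libraries, so that they are not independent evidence of direction. The renal epithelial markers PAX8, PAX2, CDH6, KRT8 and KRT18 had at least 10 reads in every library. Their summed level was 1271 to 1381 CPM in WT, 1527 to 1623 with PT2385 and 1675 to 1851 in KO, and its part in the results below was not tested. The markers did not move together, since PAX2 had 34.3, 25.3 and 13.7 CPM and CDH6 101, 262 and 204 CPM in the same order. No leukocyte or endothelial marker exceeded 2 reads in any library. Of the fibroblast markers COL1A2 and DCN were at 0, and LUM had 15 to 60 reads.

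Among the 9 genes that could be tested, BHLHE40 had the largest change against WT. It fell to 52.1% of the WT level upon PT2385 treatment and to 60.7% in KO. BHLHE41 and PER1 moved the other way. In KO they rose to 124% and 139% of WT, and with PT2385 both were higher in every library than in WT without passing the test. The other 6 genes tested did not pass it in any comparison with WT, and DBP was too low to test.

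**Figure D1:**
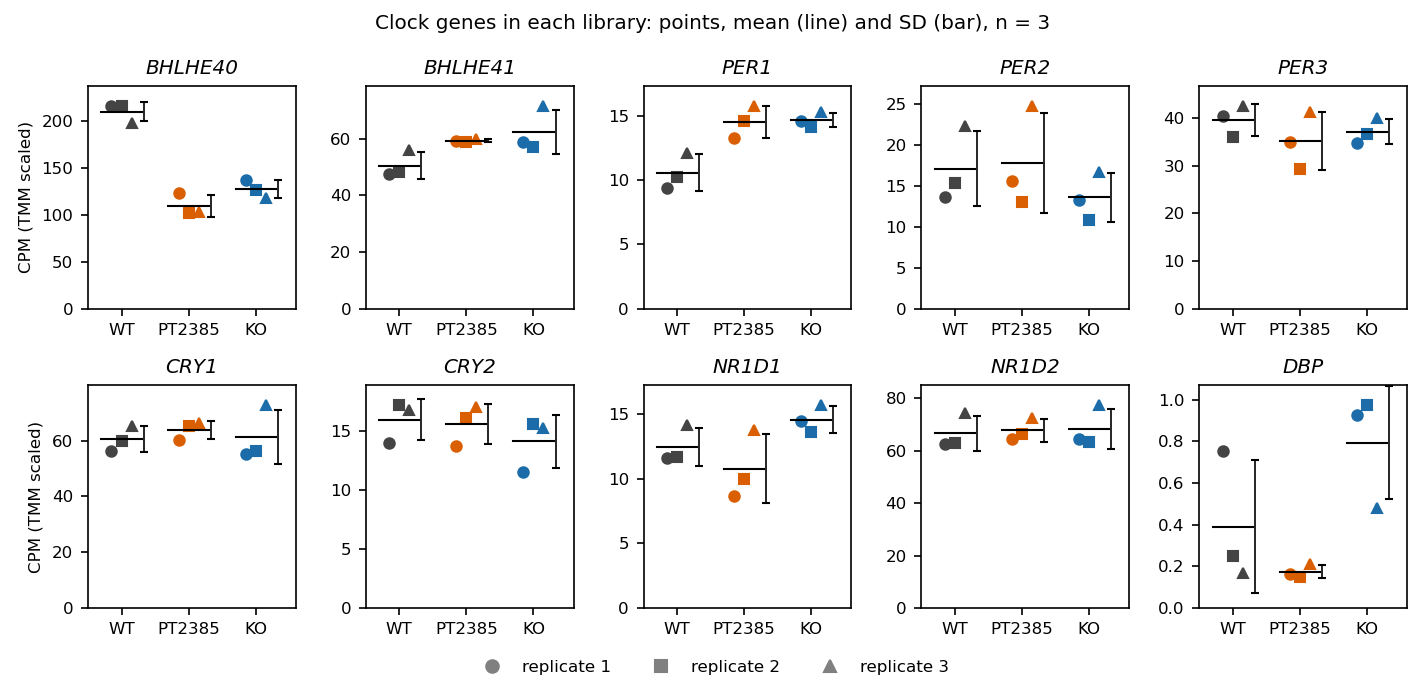
Level of each of the 10 clock genes in every library, in TMM-scaled CPM on linear axes that start at 0, for WT, PT2385 and KO. Points are libraries, with 1 symbol per replicate number, lines are means and bars are SD (n = 3). BHLHE40 lies at 198 to 215 CPM in WT and at 102 to 137 in the 6 other libraries, while BHLHE41 and PER1 are lowest in WT and DBP stays under 1 CPM throughout.

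Levels are given in CPM, read counts scaled to a common library total after TMM normalization. BHLHE40 (ENSG00000134107, chromosome 3, 4979437 to 4985323) had 215, 215 and 198 CPM in the WT replicates, from 2565, 2613 and 2364 reads. With PT2385 it had 123, 102 and 103 CPM, and in KO 137, 126 and 118. Every treated and every KO library lay far below the lowest WT library. The log2 fold change was -0.94 with PT2385 (standard error 0.0788, adjusted p = 8.99e-06) and -0.71 in KO (standard error 0.0711, adjusted p = 2.68e-05), both by edgeR. BHLHE40 was differentially expressed in both comparisons under every alternative tried, and with each library left out it stayed between -1.04 and -0.90 with PT2385 and between -0.76 and -0.65 in KO. Between KO and PT2385 themselves the difference was 0.22 (95% interval 0.02 to 0.42, adjusted p = 0.129, edgeR), and the groups overlapped. That difference was called when PT2385 replicate 1, the highest of its group, was left out (0.31, adjusted p = 0.0353, edgeR). The antisense transcript BHLHE40-AS1 shares 451 exon bases with the gene and had 7.44 reads per library on average.

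BHLHE41 (ENSG00000123095, chromosome 12, 26120030 to 26125037) is the paralog of BHLHE40. It had 47.3, 48.1 and 55.9 CPM in WT, 59.2, 58.7 and 60.0 with PT2385, and 58.8, 56.9 and 71.4 in KO. Both groups lay wholly above WT, but the lowest KO library was only just above the highest WT library. The log2 fold change was 0.32 in KO (standard error 0.0983, adjusted p = 0.0291, edgeR) and 0.23 with PT2385 (95% interval 0.06 to 0.40, adjusted p = 0.102, edgeR). The KO call did not survive the loss of WT replicate 1, WT replicate 2 or KO replicate 3, with adjusted p of 0.108, 0.124 and 0.0621 (edgeR). With PT2385, leaving out WT replicate 3 brought the adjusted p to 0.0469. KO and PT2385 differed by 0.07 (95% interval -0.13 to 0.28). SSPN overlaps the gene on the opposite strand by 162 exon bases and had 12.6 reads per library on average.

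The ratio between the DEC paralogs was lower in every PT2385 and KO library than in WT. Per kilobase of exon, BHLHE40 was 4.99, 4.91 and 3.88 times as abundant as BHLHE41 in the WT replicates. With PT2385 the ratio was 2.27, 1.91 and 1.88, and in KO it was 2.56, 2.43 and 1.81. All 6 libraries lay below all WT libraries. This had to follow, since in all 6 BHLHE40 was lower and BHLHE41 higher than in any WT library. The ratio is therefore not further evidence, and no test of it is given. PT2385 and KO overlapped, with means of 2.02 ± 0.215 and 2.27 ± 0.400 (SD, n = 3).

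**Figure D2:**
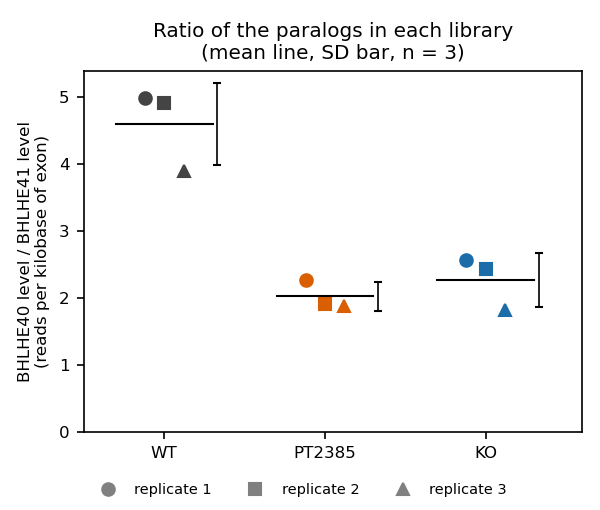
Ratio of BHLHE40 to BHLHE41 in each library, in reads per kilobase of exon, on a linear axis that starts at 0. Symbols are replicate numbers, lines are means and bars are SD (n = 3); the WT libraries lie at 3.88 or above and the 6 others at 2.56 or below.

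PER1 (ENSG00000179094, chromosome 17, 8140472 to 8156506), a repressor of the feedback loop that also answers quickly to hormones and serum, had 9.40, 10.2 and 12.1 CPM in WT. It had 13.3, 14.6 and 15.7 CPM with PT2385 and 14.6, 14.2 and 15.3 in KO. The WT libraries did not overlap with either group, while PT2385 and KO covered the same range. The log2 fold change was 0.49 in KO (standard error 0.125, adjusted p = 0.0131, edgeR). With PT2385 it was 0.46 (standard error 0.129, 95% interval 0.17 to 0.74), and at an adjusted p of 0.0532 it was not called. That value lies at the threshold. It was under 0.05 with library totals in place of TMM (0.0419), without a filter on low counts (0.0199) and in the model of all 9 libraries (0.0442). It was 0.0523 with RLE in place of TMM, 0.0564 with at least 10 reads in every library and 0.0777 with DESeq2. With 1 library left out it was under 0.05 in 2 of 6 fits (0.0354 to 0.194, edgeR). The KO call was lost without WT replicate 1 (adjusted p = 0.0581, edgeR) and without WT replicate 2 (0.0618). The difference between KO and PT2385 was 0.01 (95% interval -0.24 to 0.26).

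The other period genes were not called in any comparison. PER2 (ENSG00000132326, chromosome 2, 238244044 to 238290102) had 13.6, 15.3 and 22.3 CPM in WT, 15.6, 13.0 and 24.7 with PT2385, and 13.2, 10.8 and 16.7 in KO. All 3 groups overlapped. Its log2 fold changes were 0.06 with PT2385 (95% interval -0.43 to 0.55) and -0.31 in KO (95% interval -0.74 to 0.12), so that changes of that width could not be told from none. PER3 (ENSG00000049246, chromosome 1, 7784291 to 7845177), the member of the family least needed for rhythm, had 39.6 ± 3.33 CPM in WT, 35.2 ± 6.01 with PT2385 and 37.1 ± 2.70 in KO (SD, n = 3).

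The cryptochromes CRY1 and CRY2, which carry most of the repression of CLOCK and BMAL1, were not called in any comparison. CRY1 (ENSG00000008405, chromosome 12, 106991364 to 107093549) had 60.7 ± 4.53 CPM in WT, 63.9 ± 3.26 with PT2385 and 61.4 ± 9.73 in KO (SD, n = 3). Its interval with PT2385 ran from -0.09 to 0.24 on the log2 scale. CRY2 (ENSG00000121671, chromosome 11, 45847118 to 45883248) had 15.9 ± 1.75, 15.6 ± 1.69 and 14.1 ± 2.25 CPM in the same order.

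NR1D2 (ENSG00000174738, chromosome 3, 23945286 to 23980617) was not called either, at 66.6 ± 6.72 CPM in WT, 67.8 ± 4.29 with PT2385 and 68.4 ± 7.72 in KO (SD, n = 3). NKIRAS1 overlaps it on the opposite strand, shares 0 exon bases with it and had 123 reads per library on average. NR1D1 (ENSG00000126368, chromosome 17, 40092793 to 40100589) had 11.6, 11.7 and 14.2 CPM in WT, 8.65, 9.95 and 13.8 with PT2385, and 14.5, 13.6 and 15.7 in KO. The groups overlapped in every comparison. KO and PT2385 differed most, by 0.43 on the log2 scale (95% interval 0.06 to 0.80, adjusted p = 0.107, edgeR), and without PT2385 replicate 3, the highest of its group, the difference was 0.66 (adjusted p = 0.0117, edgeR). THRA runs over the end of NR1D1 on the opposite strand and shares 473 exon bases with it. THRA, which encodes a thyroid hormone receptor, had 7.34 ± 0.387 CPM in WT and 8.67 ± 0.465 with PT2385 (SD, n = 3, adjusted p = 0.343, edgeR), and rose to 13.8 ± 1.27 in KO (log2 fold change 0.92, adjusted p = 3.25e-04, edgeR). The strand setting of the counting is not given in the sources used here, so that reads of the pair may be mixed, and the part of THRA in the NR1D1 values was not tested.

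DBP (ENSG00000105516, chromosome 19, 48630030 to 48637379) was close to the limit of detection. It had 9, 3 and 2 reads in WT, 2, 2 and 3 with PT2385 and 12, 14 and 7 in KO, and it did not pass the filter on low counts in any comparison. KO and PT2385 did not overlap. Since DBP could pass a filter only through the KO libraries in which it was higher, no p-value is given for it. Where an alternative setting called DBP, the call is named below and is not used as support. Its exons share 661 bases with SPHK2 on the opposite strand, which had 266 reads per library on average.

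Of the 9 genes that passed the filter, 1 was differentially expressed with PT2385, beside 7.70% of all 15089 genes tested. None rose (3.08% of all genes) and 1 fell (4.62%). In KO 3 were differentially expressed, beside 30.1% of 15192, of which 2 rose (14.7% of all genes) and 1 fell (15.4%). Between KO and PT2385 edgeR called 0 of the 9, beside 18.8% of 15402 genes (8.47% higher and 10.3% lower in KO), and 2 of the 9 had an unadjusted p under 0.05 there, while DESeq2 also called 0. The shares of the clock genes were near those of all genes in both comparisons with WT. Groups did not overlap for 3 of the 9 with PT2385 (26.1% of all genes), for 3 in KO (43.8%) and for 0 between KO and PT2385 (35.4%). The median log2 fold change of the 9 genes was 0.02 with PT2385 and 0.03 in KO, against 0.00 over all genes in both.

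**Figure D3:**
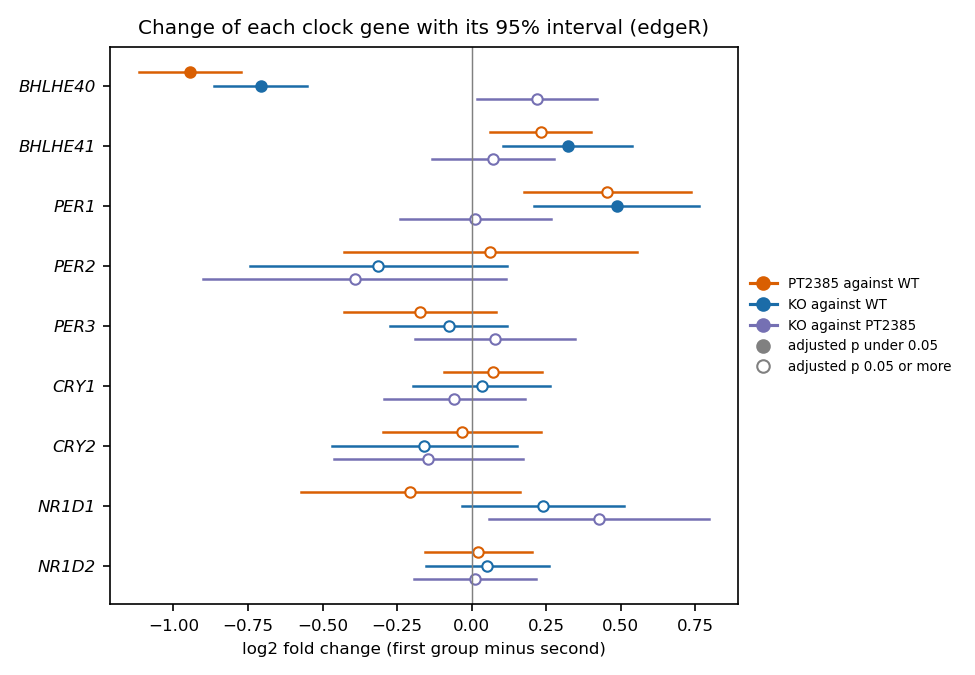
Log2 fold change of the 9 clock genes that passed the filter, with 95% intervals from edgeR, for PT2385 against WT, KO against WT and KO against PT2385. Filled points have an adjusted p under 0.05; only BHLHE40 is filled for PT2385, while BHLHE40, BHLHE41 and PER1 are filled for KO and no gene is for the direct comparison.

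Per kilobase of exon in WT cells, BHLHE40 stood first at 59.6 ± 2.86 CPM per kilobase (SD, n = 3). BHLHE41 (13.1 ± 1.22) and CRY1 (12.7 ± 0.947) came next and differed by less than their spread. NR1D2 stood after them at 11.5 ± 1.16, with a spread that overlapped theirs. PER3 (4.87 ± 0.409) and NR1D1 (4.75 ± 0.551) differed by less than their spread, as did CRY2 (2.57 ± 0.282) and PER2 (2.41 ± 0.648). PER1 followed at 1.51 ± 0.201 and DBP at 0.0602 ± 0.0492. BHLHE40 stayed first with PT2385 (31.1 ± 3.28) and in KO (36.2). The order below BHLHE40 depends on the length used. Per kilobase of the longest transcript the WT means were 15.8 for CRY1 and 13.5 for BHLHE41. They were 6.22 for PER3 and 4.75 for NR1D1, and 3.79 for CRY2 and 2.59 for PER2.

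The replicate number was a further source of difference. The labels do not say what the numbers stand for. In a model of the 9 libraries with group and replicate number, PER2 was called for replicate number (adjusted p = 0.0110, edgeR), beside 2.61% of all 15655 genes tested. The libraries numbered 3 had the highest PER2 of each group and were 1.49-fold higher than those numbered 1 after the group was taken into account. Of the 9 genes tested 1 was called, and the others had an adjusted p between 0.0620 (NR1D2) and 0.420 (PER1). BHLHE41, PER1, PER2, PER3, CRY1, NR1D1 and NR1D2 were each highest in number 3 in all 3 groups. Of these only PER2 was called for replicate number. The share of all genes that were highest in number 3 in all 3 groups was not counted, so this is not read as a trait of the clock genes. BHLHE40 was not highest in number 3 in any group, at 0.87 of the level in number 1.

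Among the other clock genes listed by role below, only the PAR bZIP factor TEF was called for replicate number, beside 2.61% of all genes. In TEF, a relative of DBP, libraries numbered 3 were higher than those numbered 1 by 0.58 on the log2 scale (adjusted p = 0.0352, edgeR). BMAL1, chosen here after its values were seen, was lowest in number 3 in each group. It had 14.4, 13.5 and 11.4 CPM in WT, 15.4, 11.5 and 9.66 with PT2385, and 13.2, 13.5 and 7.36 in KO (adjusted p = 0.0560, edgeR). With 1 group left out, 6 libraries remained, and the adjusted p of PER2 was 0.0879 without WT, 0.194 without PT2385 and 0.00962 without KO.

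**Figure D4:**
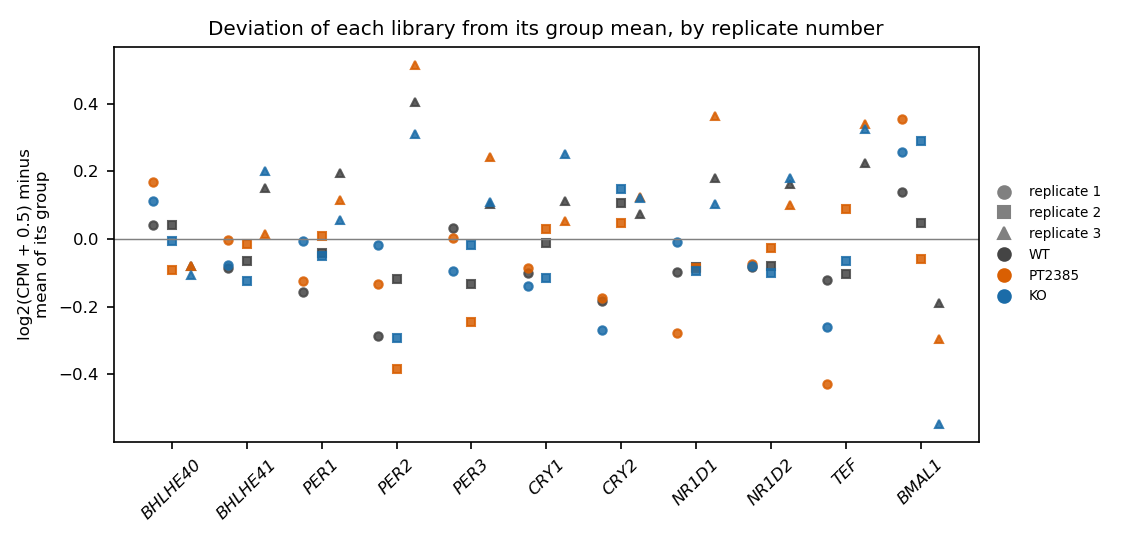
Deviation of each library from the mean of its group, in log2(CPM + 0.5), for 9 clock genes, TEF and BMAL1. Symbols give the replicate number and colours the group; for PER2 the 3 triangles (number 3) lie above all circles and squares, and for BMAL1 they lie below them.

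A further 30 genes of the clock were listed by role, of which 24 were tested with PT2385 and 26 in the comparisons with KO. With PT2385 0 rose and 2 fell, where 7.70% of all genes were called, and in KO 4 rose and 3 fell, where 30.1% were called. Both counts were near the share over all genes. The genes that rose in KO include HLF and USP2, which passed the filter only through their KO reads. In the activating limb, 2 of the 4 genes tested in KO were called, in opposite directions. NPAS2, which can take the place of CLOCK, rose in KO from 7.89, 6.10 and 5.69 CPM in WT to 15.6, 18.1 and 12.3 (log2 fold change 1.24, standard error 0.178, adjusted p = 3.70e-04, edgeR). With PT2385 NPAS2 had 7.51, 6.59 and 6.37 CPM, inside the range of WT. BMAL2, a paralog of BMAL1, fell in KO from 197 to 129 CPM (log2 fold change -0.60, adjusted p = 3.86e-04, edgeR) and had 177 CPM with PT2385 (-0.16, adjusted p = 0.189). CLOCK had 181 CPM in WT, 159 with PT2385 and 198 in KO, and was not called. RORA and RORB, which belong to a family that activates BMAL1, were not detected above the filter.

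NFIL3, a bZIP repressor that competes with DBP and its relatives for D-box elements, fell in both comparisons with WT. It had 77.0, 67.5 and 64.7 CPM in WT, 45.1, 40.7 and 46.2 with PT2385, and 34.8, 36.0 and 29.9 in KO, without overlap between any 2 groups. Its log2 fold change was -0.67 with PT2385 (standard error 0.0848, adjusted p = 3.32e-04, edgeR) and -1.04 in KO (standard error 0.0948, adjusted p = 1.25e-05). The fall was deeper in KO, by 0.39 on the log2 scale (adjusted p = 0.0157, edgeR), which became 0.0544 without PT2385 replicate 3. HLF, another relative of DBP, had 12, 10 and 12 reads in WT and 23, 30 and 29 in KO (log2 fold change 1.06, edgeR). No p-value of the main test is given for HLF. Its call in KO was lost with DESeq2 (adjusted p = 0.0712) and without WT replicate 2 (adjusted p = 0.0593, edgeR). HLF did not pass the filter with PT2385 against WT and entered the other tests only through its KO reads. In this list 1 of 6 genes tested was called with PT2385, beside 7.70% of all genes. In KO 2 of 7 were called, HLF included, beside 30.1% of all genes.

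Among kinases and ubiquitin ligases that act on clock proteins, 1 of 8 was called with PT2385, beside 7.70% of all genes. In KO 3 of 9 were called, USP2 included, beside 30.1% of all genes. USP2, a deubiquitinase of PER and CRY proteins, had 4, 6 and 2 reads in WT, 2, 2 and 6 with PT2385, and 57, 114 and 73 in KO. The fitted log2 fold change in KO was 4.10 (standard error 0.390, edgeR), and no p-value is given for it. USP2 did not pass the filter with PT2385 against WT and entered the tests only through its KO reads, and the size of its change depends on the few WT reads. GSK3B rose in KO by 0.19 (adjusted p = 0.0231, edgeR), but without WT replicate 1, WT replicate 2 or KO replicate 1 its adjusted p was 0.0726, 0.124 and 0.0716. CSNK2A1 was called only between KO and PT2385 (-0.26, adjusted p = 0.0258, edgeR), and that call was lost in 5 of the 6 fits that left out a library. None of 6 co-repressors and cofactors (NCOR1, HDAC3, SIRT1, NONO, WDR5 and KDM5A) was called in any comparison. Over all genes 7.70% were called with PT2385, 30.1% in KO and 18.8% between KO and PT2385.

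**Figure D5:**
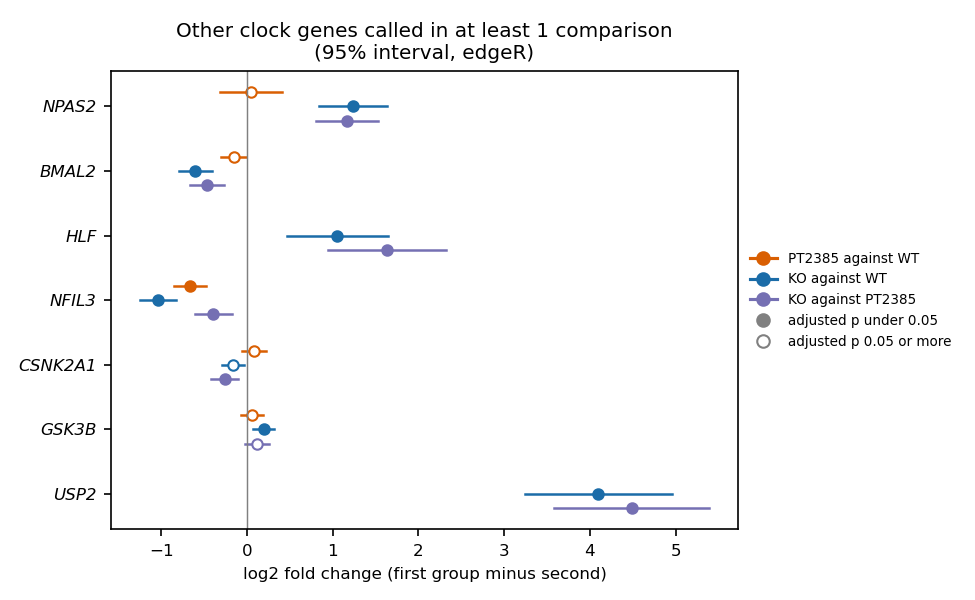
Log2 fold change with 95% interval (edgeR) of 7 other clock genes called in at least 1 of the 3 comparisons. Filled points have an adjusted p under 0.05, and no point is drawn for PT2385 against WT where HLF and USP2 did not pass the filter. NFIL3 is filled for both PT2385 and KO against WT, and NPAS2, BMAL2 and GSK3B for KO. HLF and USP2 are also filled for KO, but they entered those tests only through their KO reads. Their filled points are not used as support.

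Genes whose pattern over the 9 libraries lay nearest to BHLHE40 were sought among 9554 others with a mean of at least 10 CPM, as the smallest root mean square difference of log2 CPM after each gene was centred on its mean. These were ARHGEF34P, SLC5A3 and NEK6, at 0.136, 0.139 and 0.139. NEK6, a mitotic kinase, had 246 ± 9.29 CPM in WT, 123 ± 8.49 with PT2385 and 158 ± 1.82 in KO (SD, n = 3). ARHGEF34P is annotated as a pseudogene, and its reads may be shared with related copies. Among those nearest to BHLHE41 were ZNF696 and MTG2, at 0.0489 and 0.0520. MTG2 had 58.9 ± 2.99 CPM in WT, 66.6 ± 1.25 with PT2385 and 69.1 ± 8.77 in KO (SD, n = 3). When each gene was also divided by its SD, 0 of the 3 genes nearest to BHLHE40 remained, and neither ZNF696 nor MTG2 was among the 3 nearest to BHLHE41.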

How the data were processed

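The deposited file holds raw read counts per gene. According to the methods of the study and the submitters' processing notes, the authors trimmed reads with cutadapt, aligned them to GRCh38 with STAR and counted them with featureCounts; tool versions, annotation release and strand setting are not given in the sources used here. Of the 58735 identifiers 58207 were paired with a symbol through GENCODE 44, and 0 columns were left without a sample. Groups and replicate numbers came from sample titles.

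Each pair of groups was fitted on all genes with edgeR 4.0.16 in R 4.3.3, using TMM factors (0.988 to 1.02), filterByExpr with a minimum count of 10 and the quasi-likelihood F test. P-values were adjusted by Benjamini-Hochberg over all tested genes and called under 0.05. Standard errors and intervals are those of the model. The steps were tested on simulated data. Alternatives were RLE or no composition scaling, DESeq2 1.42.0, no filter, 10 reads in every library, the replicate block, 1 model of 9 libraries and leaving out each library. Depth limits precision, and replicates differed by more than counting error. Genes were named if among the 10, if listed clock genes called in at least 1 comparison (at most 4 per list by size of change), if overlapping one of the 10 with at least 10 reads on average, or if nearest in pattern. BHLHE40-AS1, PDK1 and the listed genes given without a call were named outside this rule. Some genes that these rules name are not reported here, though counts over a list include them. The genes and lists were chosen with earlier results of these data known.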

Additional observations from a re-analysis of the deposited data

Results flagged for a closer look

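No clock gene of the 10 differed between KO and PT2385 by the edgeR test. Of 26 other listed clock genes tested 6 did, near the 18.8% called among all genes. The log2 difference, KO minus PT2385, was 1.17 for NPAS2 (adjusted p = 6.19e-04, edgeR) and -0.46 for BMAL2 (adjusted p = 0.00461, edgeR). It was -0.39 for NFIL3 (adjusted p = 0.0157, edgeR) and -0.26 for CSNK2A1 (adjusted p = 0.0258, edgeR). For HLF and USP2 it was 1.63 and 4.49, given without a p-value. In each of the 6 genes the KO and PT2385 libraries did not overlap, as in 35.4% of all genes tested. The 6 were picked by their call between these same libraries, so the separation is not further evidence. CSNK2A1 was not called against WT in either comparison, and its call here was lost in 5 of the 6 fits that left out a library. HLF and USP2 entered this test only through their KO reads, and both are in the count of 6.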

How the results depend on the processing

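Of 1087 values of single genes recomputed under an alternative, 1027 stayed on their side of the threshold, 41 lost their call, 19 gained one, and none of those called changed sign. The 1 clock gene called with PT2385 became 2 with library totals, 2 without a filter and 2 in the model of all 9 libraries, PER1 being the second in each. Without a filter 3 clock genes were called between KO and PT2385 (PER2, NR1D1 and DBP, against 0) and 3 by replicate number (against 1); the cause was not tested. By replicate number 0 were called without the WT group and 0 without the PT2385 group, while PER2 was still called without the KO group; the cause was not tested. With 1 library left out, 1 to 3 clock genes were called with PT2385, 1 to 3 in KO and 0 to 2 between KO and PT2385 (DBP in 3 fits, where it passed the filter through its KO reads), while over all genes 574 to 1451 were called with PT2385, 3344 to 5094 in KO and 1836 to 3190 between KO and PT2385.

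Libraries with the same number did not all deviate together. Over 15655 genes the correlation of their deviations from the group means was 0.161 to 0.256 for numbers 1 and 3 but -0.00223 to 0.0477 for number 2, so that the numbers were not taken as pairs. Over the 9555 genes with a mean of at least 10 CPM, number 2 reached 0.145 between PT2385 and WT but 0.0611 between KO and WT and 0.0969 between KO and PT2385. Over all genes every library correlated best with its own number between PT2385 and WT, but those numbered 2 did not in the comparisons with KO. With the replicate block 3 clock genes were called with PT2385 (BHLHE40, BHLHE41 at an adjusted p of 0.0283 and PER1 at 0.00908, against 1) and 3 between KO and PT2385 (BHLHE40, PER2 and NR1D1, against 0), while over all genes the share called was 15.3% with PT2385 (2305 genes against 1162), 36.2% in KO and 24.6% between KO and PT2385.

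Per kilobase of the longest transcript the ratio of BHLHE40 to BHLHE41 was 4.98 in WT, 2.19 with PT2385 and 2.46 in KO. DBP, RORA and RORB were too low to test in the main fits.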
